A study of Homo sapiens with 3 samples.

Results

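The aldo-keto reductases are a family of enzymes that reduce aldehydes and ketones with NADPH. The members studied here were the 10 rows of the deposited expected-count table named AKR1A1, AKR1B1, AKR1B10, AKR1C1, AKR1C2, AKR1C3, AKR1C4, AKR1D1, AKR7A2 and AKR7A3, out of 62680 rows in all. The family was chosen by its expected counts in these same libraries, so the ratios are a description and carry no test. The cells were HepG2, a line of human liver carcinoma cells with the genotype given as WT, which were held for 48 h in 20 µM A740003, in 20 µM A438079, or in PBS as the control, and then profiled by RNA-seq. Both antagonists are labelled as specific for P2X7, a channel opened by ATP, and its gene P2RX7 had 2 counts in each library. What the antagonists were dissolved in is not given, so any effect of a solvent cannot be told apart from theirs.

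With a single library for each treatment, differences have no replicate check and none was tested. With the expected counts of each row rounded, the A740003 library held 19735540 counts, the A438079 library 19606723 and the PBS library 19375462. Counts were scaled for library size, and ratios carry a 95% interval that covers counting error only. Compared were the 12270 genes that averaged 1 CPM (counts scaled to library size) or more. All 9 hepatocyte markers reached that level and summed to 22064, 23791 and 21837 CPM in the A740003, A438079 and PBS libraries. Single markers differed in direction within that sum. ALB stood at 4807, 6191 and 6456 CPM, AFP at 860, 1113 and 1206 CPM and APOA1 at 1022, 1119 and 1143 CPM, each lowest with A740003 and highest with PBS like the sum of the AKR1C rows. APOB stood the other way, at 8534, 8156 and 6160 CPM, and so did TTR, at 7.48, 5.93 and 4.53 CPM. FGB (128, 193 and 174 CPM) and TF (4070, 4359 and 4246 CPM) were lowest with A740003 but highest with A438079. SERPINA1 was lowest with PBS, at 2437, 2455 and 2252 CPM, and HNF4A was nearly level, at 198, 201 and 197 CPM. Their part in the results was not tested. Of 5 cholangiocyte markers, 3 reached it, with a summed level of 340, 395 and 430 CPM, and KRT7 and CFTR were at 0. That sum, like the sum of the AKR1C rows, was lowest with A740003 and highest with PBS, and its part was not tested either. None of 7 stromal and endothelial markers reached it, with summed levels of 0.10 to 0.516 CPM. Of 6 immune markers, 3 reached it, with sums of 986, 987 and 1072 CPM, nearly all from LYZ, and PTPRC, CD3E and HBB were at 0.

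In the liver this family meets several substrates. AKR1A1 and the AKR1B enzymes reduce sugars and reactive aldehydes, the AKR1C enzymes reduce ketones on steroids and prostaglandins, AKR1D1 reduces the double bond of bile acid precursors and steroid hormones, and the AKR7A enzymes handle aflatoxin dialdehyde and succinic semialdehyde. Several AKR1B and AKR1C genes are known targets of NRF2, the transcription factor of the oxidative stress response, which binds antioxidant response elements.

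The AKR1C genes lie side by side on chromosome 10 (GRCh38, GENCODE release 29). AKR1C1 (ENSG00000187134) spans chr10:4963253-4983283 on the plus strand, AKR1C2 (ENSG00000151632) chr10:4987400-5018031 on the minus strand, AKR1C3 (ENSG00000196139) chr10:5035354-5107686 on the plus strand and AKR1C4 (ENSG00000198610) chr10:5195462-5218949 on the plus strand. Of the other members, AKR1B1 (ENSG00000085662, chr7:134442350-134459284, minus strand), AKR1B10 (ENSG00000198074, chr7:134527592-134541408, plus strand) and AKR1D1 (ENSG00000122787, chr7:138002324-138117986, plus strand) are on chromosome 7. AKR1A1 (ENSG00000117448, chr1:45550543-45570049, plus strand), AKR7A2 (ENSG00000053371, chr1:19303965-19312146, minus strand) and AKR7A3 (ENSG00000162482, chr1:19282558-19289250, minus strand) are on chromosome 1. The AKR1C coding sequences in that annotation are all 972 bases long. AKR1C1 differed from AKR1C2 at 19 bases (98.0% identity), with a longest identical run of 189 bases, from AKR1C3 at 79 bases (91.9%) and from AKR1C4 at 112 bases (88.5%). The stretch from coding base 43 to 162 is shown because it holds 10 of the 19 differences between AKR1C1 and AKR1C2. Capitals mark bases that differ from AKR1C1, and AKR1C3 and AKR1C4 differ there at 11 and 16 bases.
AKR1C1: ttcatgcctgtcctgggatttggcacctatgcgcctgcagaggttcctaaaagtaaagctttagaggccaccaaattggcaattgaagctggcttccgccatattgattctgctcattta
AKR1C2: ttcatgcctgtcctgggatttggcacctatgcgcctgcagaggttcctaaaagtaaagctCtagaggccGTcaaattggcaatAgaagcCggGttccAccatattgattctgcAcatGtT
AKR1C3: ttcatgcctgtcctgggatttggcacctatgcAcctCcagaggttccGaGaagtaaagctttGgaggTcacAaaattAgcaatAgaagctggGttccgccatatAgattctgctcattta
AKR1C4: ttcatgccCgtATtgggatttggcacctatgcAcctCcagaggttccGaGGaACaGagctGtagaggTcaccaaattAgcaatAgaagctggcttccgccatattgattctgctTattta

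Reads from the long identical stretches cannot be assigned to 1 gene by sequence. Of all 50-base windows of the AKR1C1 coding sequence, 53.8% were found letter for letter in another member, and 51.8% in AKR1C2. The share was 57.2% for AKR1C2, 23.0% for AKR1C3 and 12.1% for AKR1C4. With 150-base windows the shares were 4.98% for AKR1C1, 7.65% for AKR1C2 and 2.67% for AKR1C3. Of the other members, AKR7A2 and AKR7A3 shared 6.79% and 7.39% of their 50-base windows, and AKR1A1, AKR1B1, AKR1B10 and AKR1D1 shared none. The expected counts are estimates that divide such reads, so the sum over the AKR1C rows is given beside each of them. Of the 10 members, AKR1A1 alone had whole-number expected counts in all 3 libraries, within 0.005.

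**Figure D1:**
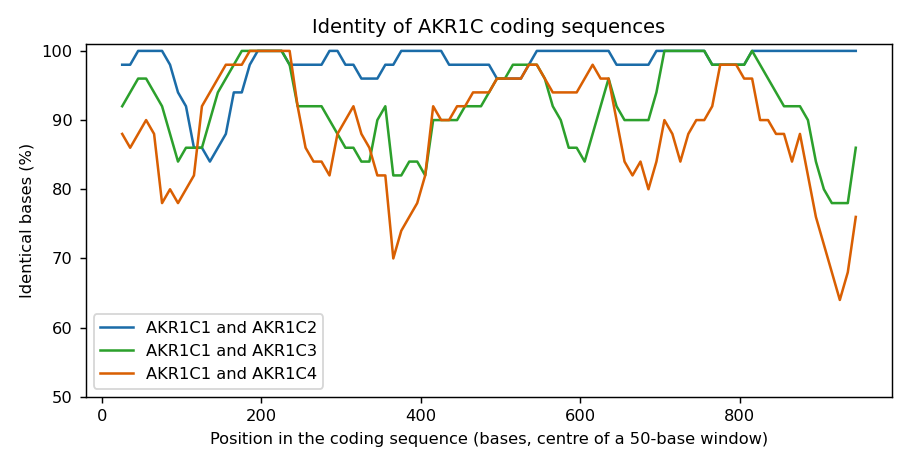
Share of identical bases (%) between the AKR1C1 coding sequence and those of AKR1C2, AKR1C3 and AKR1C4, in 50-base windows plotted at their centre (bases from the start codon). AKR1C2 stays close to AKR1C1 except in 1 stretch early in the sequence, and AKR1C3 and AKR1C4 are less alike near the end, on an axis that starts at 50%.

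The bases just before the start sites were compared as well, to set the neighbouring AKR1C genes beside each other. The RefSeq table of GRCh38.p14 held a start for 9 of the 10 members, all but AKR1B10. The 250 bases before the start of AKR1C1 (chr10:4963165-4963414, plus strand) and AKR1C2 (chr10:5003858-5004107, minus strand) were the same at 245 of 246 aligned bases (99.6%), and AKR1C3 matched AKR1C1 at 76.8% or 78.6% for its 2 listed starts and AKR1C4 at 69.7%. The core of the antioxidant response element, TGACNNNGC, was searched on both strands. It was found in 1 of the 9 members, AKR7A2 (chr1:19312145-19312394, minus strand), which has 2 matches on its own strand and 1 on the other. For comparison, 13.2% of 27305 genes had the core in at least 1 such window. Only these 250 bases were searched, so the search cannot tell whether a member has the core further away. The RefSeq starts need not match the GENCODE spans given above. The AKR1C2 window lies inside the span of its gene, and the AKR1C1 window overlaps its own. Starts annotated only by GENCODE were not searched. Each sequence runs toward the start site, and capitals mark the core, which has no match in the first pair.
AKR1C1: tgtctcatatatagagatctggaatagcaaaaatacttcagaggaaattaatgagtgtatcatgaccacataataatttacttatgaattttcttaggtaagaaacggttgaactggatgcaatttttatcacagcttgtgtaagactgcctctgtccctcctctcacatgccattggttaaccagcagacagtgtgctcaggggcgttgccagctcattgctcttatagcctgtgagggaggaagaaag
AKR1C2: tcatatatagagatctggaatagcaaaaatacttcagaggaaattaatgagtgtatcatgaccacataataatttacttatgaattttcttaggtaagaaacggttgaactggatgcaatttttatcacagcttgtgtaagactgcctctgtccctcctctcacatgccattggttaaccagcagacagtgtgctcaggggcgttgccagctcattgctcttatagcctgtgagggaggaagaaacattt
AKR7A2: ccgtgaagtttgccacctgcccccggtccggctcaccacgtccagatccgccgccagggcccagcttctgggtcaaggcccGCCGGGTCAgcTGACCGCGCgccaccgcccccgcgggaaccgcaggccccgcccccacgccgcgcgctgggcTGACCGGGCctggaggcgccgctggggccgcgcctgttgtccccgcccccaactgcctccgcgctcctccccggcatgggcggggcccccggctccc

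By FPKM, the authors' values per length and library, AKR1C2, AKR1C1 and AKR1C3 were the most abundant members. AKR1C2 stood at 2091, 2398 and 2967 FPKM in the A740003, A438079 and PBS libraries, ranks 69, 61 and 52 of 62680 rows. AKR1C1 stood at 1219, 1420 and 2109 FPKM, and AKR1C3 at 857, 897 and 1091 FPKM. All of these were highest in the PBS library and lowest with A740003. The order below them was AKR1B10 (254, 250 and 326 FPKM), AKR1A1 (181, 159 and 167), AKR1B1 (89.0, 89.1 and 89.9), AKR7A2 (49.2, 43.9 and 44.9), AKR1D1 (23.8, 25.8 and 25.5), AKR1C4 (3.70, 5.25 and 5.80) and AKR7A3 (0.16, 0.16 and 0.33). That order by FPKM was the same in each library. By counts, AKR1C1 stood above AKR1C2 in the PBS library (46622 and 43131). The ranges over the 3 libraries overlapped between neighbours only for AKR1C2 and AKR1C1.

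**Figure D2:**
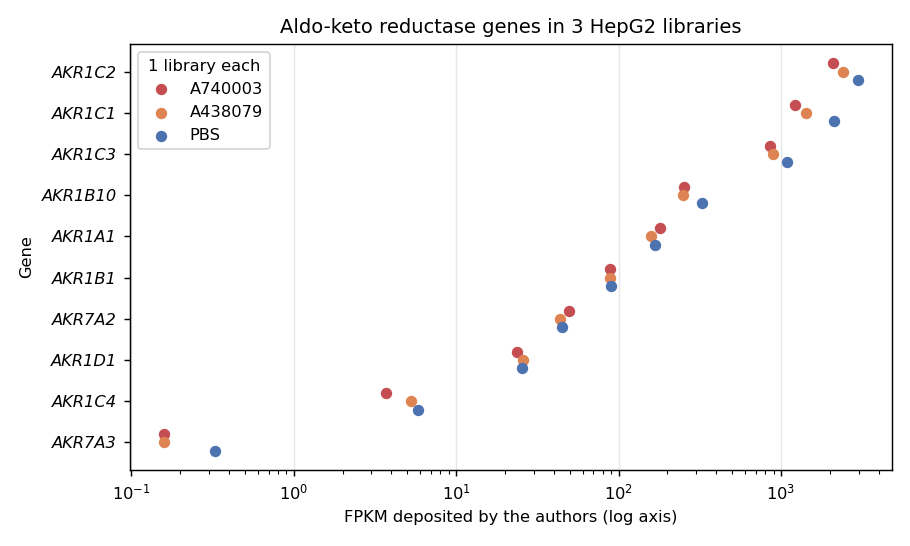
FPKM deposited by the authors (log axis) of the 10 aldo-keto reductase genes in the A740003, A438079 and PBS libraries, 1 point per library. AKR1C2, AKR1C1 and AKR1C3 lead in every library, and their PBS points lie to the right of both antagonist points.

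The comparison of A740003 with PBS asks how the antagonist library differed from the control, and all AKR1C genes stood below PBS in it. In RNA from whole cultures, fewer cells of a kind and less RNA per cell cannot be told apart. AKR1C1, which inactivates progesterone, had 27098 expected counts with A740003 and 46622 with PBS, a ratio of 0.567 (95% interval 0.558 to 0.575). AKR1C2, which inactivates dihydrotestosterone, had 32136 counts with A740003 and 43131 with PBS (0.727, 0.716 to 0.737). These neighbours share the most sequence, and their counts summed to 0.644 times PBS (0.637 to 0.650). AKR1C3, which makes testosterone and prostaglandin F from their precursors, had 15584 counts with A740003 and 19157 with PBS (0.793, 0.777 to 0.810). AKR1C4, a liver enzyme of bile acid and steroid reduction, had 68 counts with A740003 and 111 with PBS (0.598, 0.435 to 0.815). AKR1C4 is so low that its interval is the widest of the 9 members compared.

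The sum of the AKR1C rows was 74886 counts with A740003 and 109020 with PBS, 0.379% against 0.563% of all counts. Its ratio was 0.670 (0.664 to 0.676), just short of a 1.5-fold reduction. AKR1C1 made up 56.1% of the difference in CPM, AKR1C2 32.8% and AKR1C3 11.0%.

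Among the aldehyde reductases, AKR1B10, which reduces retinal and is abundant in many liver carcinomas, had 5946 counts with A740003 and 7362 with PBS (0.788, 0.761 to 0.815). AKR1B1, the aldose reductase that turns glucose into sorbitol, had 1888 counts with A740003 and 1861 with PBS (0.990, 0.928 to 1.06). AKR1A1, which reduces glucuronate and other aldehydes, had 3499 counts with A740003 and 3207 with PBS (1.06, 1.01 to 1.12). So AKR1B10 was below PBS while its neighbour AKR1B1 was not distinguishable from it at this depth. AKR1D1, which forms the A/B-ring shape of bile acids, had 872 counts with A740003 and 1005 with PBS (0.846, 0.772 to 0.928). AKR7A2, which reduces succinic semialdehyde, had 1068 counts with A740003 and 941 with PBS (1.11, 1.01 to 1.21). AKR7A3, an aflatoxin aldehyde reductase, had 3 counts with A740003 and 6 with PBS, and no difference was detectable at that depth.

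A gene was counted as lower or higher when its ratio was at least 1.5-fold from 1 and the interval excluded 1. AKR1C1 and AKR1C4 were lower by that rule and no member was higher, 2 of the 9 members that reached 1 CPM. Over all genes compared, 10.7% were lower and 3.14% higher. Correcting each ratio for the GC content and length of the transcript changed the split of calls over all genes, to 799 lower and 417 higher in place of 1313 lower and 385 higher. The call for AKR1C4 was lost with FPKM and a pseudocount of 1 (0.691) and under a minimum of 5 CPM. The interval lay below 1 for 6 of the 9 members (26.7% of all genes) and above 1 for 2 (26.2%). Intervals are narrower at higher counts, and these shares, here and in the comparisons below, were not matched to the members for counts. The median log2 ratio of the 9 was -0.33, and that of all genes was 0.0010.

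**Figure D3:**
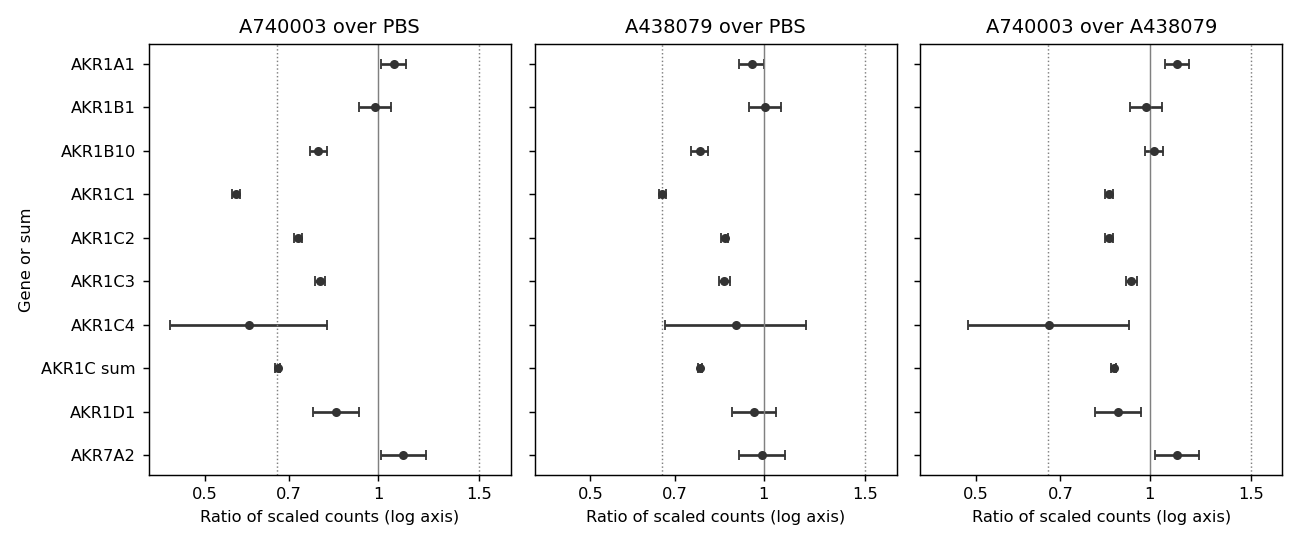
Ratio of scaled counts (log axis) for the 9 members with at least 1 CPM and the AKR1C sum, for A740003 over PBS, A438079 over PBS and A740003 over A438079, with 95% intervals for counting error only. The dotted lines mark 1.5-fold. AKR1C1 is at or past the lower line over PBS in both antagonist libraries, and the interval of AKR1B1 includes 1 in all 3 panels.

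The comparison of A438079 with PBS had AKR1C1 furthest below PBS among the 9 members that reached 1 CPM. AKR1C1 had 31007 counts with A438079 and 46622 with PBS (0.666, 0.657 to 0.676). This sits on the 1.5-fold line. It stayed just inside that line with DESeq2 size factors (0.670), upper quartile scaling (0.690) and FPKM (0.673), where it was not counted as lower. AKR1C2 had 36797 counts with A438079 and 43131 with PBS (0.855, 0.843 to 0.867). AKR1C3 had 16338 counts with A438079 and 19157 with PBS (0.854, 0.837 to 0.873). The ratios of these 2 genes were nearly the same. The AKR1C sum was 84241 counts with A438079 and 109020 with PBS (0.774, 0.767 to 0.781), and AKR1C1 made up 63.2% of its difference in CPM.

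AKR1B10 had 5683 counts with A438079 and 7362 with PBS (0.773, 0.747 to 0.801), so the retinal reductase stood further from PBS than AKR1C2 and AKR1C3 there. The intervals of AKR1A1 (0.953, 0.907 to 1.002), AKR1B1 (1.003, 0.941 to 1.07), AKR1C4 (0.894, 0.675 to 1.18), AKR1D1 (0.961, 0.879 to 1.05) and AKR7A2 (0.993, 0.906 to 1.09) all included 1. AKR7A3 had 3 counts with A438079 and 6 with PBS. AKR1C1 was the 1 member of 9 counted as lower, against 9.44% of all genes, and no member was higher, against 1.63%. After the same correction, 582 genes were lower and 236 higher, in place of 1158 and 200. The interval lay below 1 for 4 of 9 members (23.2% of all genes) and above 1 for 0 (22.9%). The median log2 ratio of the 9 members was -0.16, and that of all genes was -0.0036.

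The correction used the longest annotated transcript of each gene. Over the 9 members the median GC content was 44.3% and the median length 1818 bases, against 47.5% and 3528 bases over all genes. The lengths used were 6705 bases for AKR1C1 and 3756 for AKR1C2, where the authors' FPKM imply 1127 and 779 in the A740003 library, and the effect of that choice on the corrected values was not tested. After the correction, the log2 ratios over PBS with A740003 and A438079 were -0.98 and -0.70 for AKR1C1, -0.58 and -0.33 for AKR1C2, -0.33 and -0.25 for AKR1C3 and -0.33 and -0.38 for AKR1B10. The uncorrected values were -0.82 and -0.59 for AKR1C1, -0.46 and -0.23 for AKR1C2, -0.33 and -0.23 for AKR1C3 and -0.34 and -0.37 for AKR1B10.

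The makeup of the AKR1C sum also differed from PBS. AKR1C1 held 36.2% of the summed counts in the A740003 library (exact binomial 95% interval 35.8 to 36.5), 36.8% in the A438079 library (36.5 to 37.1) and 42.8% in the PBS library (42.5 to 43.1). AKR1C2 held 42.9%, 43.7% and 39.6%, and AKR1C3 held 20.8%, 19.4% and 17.6%, in the same libraries. By counts, AKR1C1 was thus the larger of its pair in the PBS library and the smaller with either antagonist. By FPKM, which the authors scaled for length, AKR1C2 was the larger in every library, with 2967 against 2109 FPKM in the PBS library. The count of AKR1C1 per count of AKR1C2 was 0.843 with A740003, 0.843 with A438079 and 1.08 with PBS. AKR1C2 per AKR1C3 was 2.06, 2.25 and 2.25 in the same order. Because both rows divide shared reads, how far the split between AKR1C1 and AKR1C2 rests on the authors' estimate was not tested. The intervals of the shares cover counting error only and leave out any error in that division. The gene length implied by the authors' FPKM was 779, 782 and 750 bases for AKR1C2 and 1127, 1114 and 1141 for AKR1C1 in the A740003, A438079 and PBS libraries.

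**Figure D4:**
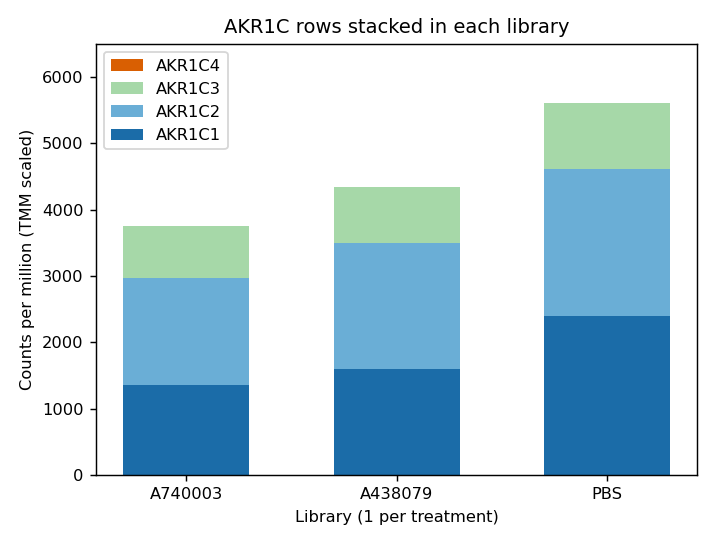
Scaled counts (CPM) of the AKR1C rows, stacked, in the A740003, A438079 and PBS libraries (1 each, no error bars). The stack stands at 3761, 4346 and 5613 CPM, the AKR1C1 block is larger than the AKR1C2 block with PBS alone, and AKR1C4 is too thin to see.

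Set directly against A438079, the A740003 library had less of AKR1C1 and AKR1C2 by the same proportion. AKR1C1 stood at 0.851 times A438079 (0.837 to 0.865) and AKR1C2 at 0.850 times (0.838 to 0.863). AKR1C3 stood at 0.929 times (0.908 to 0.949), AKR1C4 at 0.669 times (0.484 to 0.920) and AKR1D1 at 0.881 times (0.803 to 0.966), and the AKR1C sum at 0.865 times (0.857 to 0.874). AKR1A1 (1.12, 1.06 to 1.17) and AKR7A2 (1.11, 1.02 to 1.22) stood above A438079. The intervals of AKR1B10 (1.02, 0.982 to 1.06) and AKR1B1 (0.986, 0.924 to 1.05) included 1. Of the 9 members, 0 were at least 1.5-fold lower (2.81% of all genes) or higher (2.44%), against 5.26% of all genes in either direction. The interval lay below 1 for 5 of the 9 (17.3% of all genes) and above 1 for 2 (15.6%).

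The remaining rows with an AKR name were nearly silent. Outside the 10 members the table had 20 further rows with an AKR name, of which 13 were at 0 in every library and the highest count was 11.0, in AKR7L. KCNAB2, a potassium channel beta subunit that belongs to the same superfamily, had 163 counts with A740003, 240 with A438079 and 481 with PBS, 0.331 and 0.50 times PBS. Corrected for GC content and length, its log2 ratios were -0.89 and -0.43, against -1.59 and -1.0 before.

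Genes of neighbouring pathways were counted by the same rule, and each pair of ratios is for A740003 and then A438079. The counts read against 10.7% lower and 3.14% higher over all genes with A740003, and 9.44% lower and 1.63% higher with A438079. Of 13 genes listed as short-chain carbonyl reductases with at least 1 CPM, 1 was higher and 0 lower with A740003, and 0 either way with A438079. The list was drawn broadly and also holds the reductases PTGR1, PTGR2 and BLVRB. The higher gene, DHRS2, had 25383 counts with A740003, 16590 with A438079 and 14846 with PBS (1.67 and 1.12 times PBS). DCXR, which like AKR1A1 acts in glucuronate metabolism, stood at 1.46 and 1.15 times. The list's median log2 ratios were 0.12 and 0.11, where those of the aldo-keto reductases were -0.33 and -0.16. Of 10 polyol and glucuronate pathway genes, 0 were lower or higher in either library, and XYLB, a xylulose kinase, stood at 0.776 and 0.816 times PBS.

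Of 16 aldehyde and alcohol dehydrogenase genes, 3 were lower and 1 higher with A740003 (10.7% and 3.14% of all genes), and 1 lower and 1 higher with A438079 (9.44% and 1.63%). ADH4, a liver alcohol dehydrogenase, had 660 counts with A740003, 1088 with A438079 and 1081 with PBS (0.596 and 1.01 times PBS), so it was lower with A740003 and beside PBS with A438079. ALDH16A1 stood at 0.435 and 0.408 times. Named after their values were seen, ALDH3B1 (0.622 and 0.769 times) was the other gene lower with A740003, and ALDH3A1, an aldehyde dehydrogenase of few counts here (89 with A740003, 80 with A438079, 45 with PBS), was the higher one at 1.93 and 1.78 times. Corrected for GC content and length, the log2 ratios were -0.36 and -0.63 for ALDH16A1 and 0.17 and 0.26 for ALDH3B1, so neither reached 1.5-fold lower with A740003. ADH4, at -0.77 and -0.01, still did. Of 14 steroid and prostaglandin partner genes, 2 were lower with A740003 and 0 with A438079, and none was higher. PTGES2, a prostaglandin E synthase, stood at 0.642 and 0.722 times PBS, and UGT2B4, named after its values were seen, at 0.508 and 0.751 times. After the correction PTGES2 had log2 ratios of -0.28 and -0.12 and no longer reached 1.5-fold. HSD17B2, of the same list, went the other way, from -0.48 and -0.29 to -0.69 and -0.45, past 1.5-fold with A740003. SRD5A1, the steroid reductase that acts before AKR1C2 and AKR1C4, stood at 1.28 and 1.48 times. Of 11 bile acid partner genes, 2 were higher with A740003 and 0 with A438079, and none was lower. They were SLC27A5, a bile acid ligase (1.79 and 1.21 times), and NR0B2, the repressor SHP (1.73 and 1.09 times). With A740003, the higher genes of these lists still reached 1.5-fold after the correction. Their log2 ratios were 0.71 for DHRS2, 1.03 for ALDH3A1, 0.93 for SLC27A5 and 0.76 for NR0B2.

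Genes of the NRF2 system were spread on both sides of PBS. NFE2L2, the gene of NRF2, had 4985 counts with A740003, 4740 with A438079 and 4204 with PBS (1.16 and 1.13 times PBS). Of 9 genes of NRF2 regulators, 2 were lower and 0 higher in each antagonist library, where 10.7% and 9.44% of all genes were lower. They were small MAF partners of NRF2, MAFF and MAFG with A740003 and MAFF and MAFK with A438079. MAFG stood at 0.657 and 0.683 times PBS, MAFK at 0.668 and 0.568 times, and MAFF, named after its values were seen, at 0.588 and 0.604 times. None of the 3 reached 1.5-fold lower after the correction, where the log2 ratios were -0.26 and -0.25 for MAFG, 0.10 and -0.19 for MAFK and -0.22 and -0.21 for MAFF. Of 23 NRF2 targets outside the family, 0 were lower and 1 higher with A740003, and 1 was lower and 0 higher with A438079. The higher gene was FTL, the ferritin light chain (1.61 and 1.17 times, or log2 ratios of 0.62 and 0.24 after the correction). The lower one was ABCC3, an export pump (0.678 and 0.654 times, or log2 ratios of -0.23 and -0.32 after the correction). NQO1, a quinone reductase named after its values were seen, stood at 1.09 and 0.994 times. The list's median log2 ratios were 0.06 and -0.05, against 0.0010 and -0.0036 over all genes. Below PBS were 10 of 23 genes with A740003 and 14 of 23 with A438079, and the share of all genes below PBS was not counted.

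**Figure D5:**
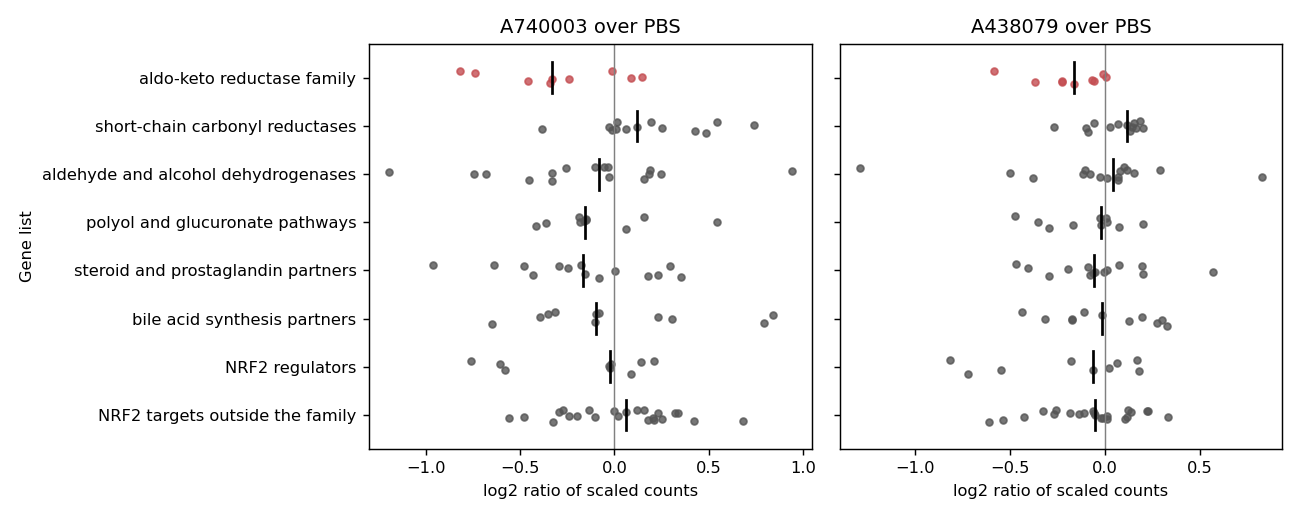
Log2 ratio of scaled counts for the members (top row) and 7 lists of related genes, for A740003 over PBS and A438079 over PBS, with 1 point per gene and a bar at each median. The members' medians are -0.33 and -0.16, and the NRF2 target medians are 0.06 and -0.05.

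The genes outside the family whose pair of log2 ratios over PBS was nearest to that of the AKR1C sum were MARCKS, SF1 and SMPD4, at distances of 0.0175, 0.0295 and 0.0395 over 3 libraries. MARCKS, an actin-binding protein kinase C substrate, stood at 0.678 and 0.773 times PBS. The search covered 3693 genes with at least 50 CPM, and 14 lay within a distance of 0.1.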

How the data were processed

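The authors deposited expected counts per gene, estimates that need not be whole (35.1%, 34.8% and 33.3% of the values above 0 were not, in the A740003, A438079 and PBS libraries). They also deposited FPKM values per gene, scaled by the authors for length and library size. RNA was extracted with an RNeasy kit and made into libraries with a SMARTer kit, per the labels' protocols. The submitters' processing notes name GRCm38, a mouse build, although the rows are human genes. No source used here gives the aligner, counting tool, annotation or use of strand. Rows without an Ensembl identifier (116, with 0.0792%, 0.0775% and 0.0853% of counts) stayed in the totals.

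Expected counts were rounded, except that the AKR1C rows were summed before rounding. Scaling was by TMM factors (1.01, 0.989 and 1.002) from edgeR 4.0.16 under R 4.3.3. Ratios have exact conditional binomial (Clopper-Pearson) 95% intervals, which cover counting error only. Log2 ratios used a pseudocount of 0.5 counts. No p-value was computed, since each treatment had 1 library. The ratio, interval and calling step was tested on simulated counts. These held counting error only, with no shared reads, TMM scaling or GC and length trend.

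The GC and length trend was the median log2 ratio of the 200 genes nearest in GC content and length of the longest transcript (GENCODE release 29, GRCh38, for 11906 of 12270 genes, 97.0%). Promoter sequences are from RefSeq (GRCh38.p14).

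The members and lists were chosen with earlier results of these data known. All members were named, with up to 4 genes of each other list (those furthest from PBS in either antagonist library, at a mean of 5 CPM or more) and the 3 genes nearest to the AKR1C sum. Both comparisons with PBS share 1 PBS library. The alternatives scaled by total counts, by size factors of DESeq2 1.42.0 or by the upper quartile, or used unrounded counts, FPKM with pseudocounts of 0.1 and 1, removal of the GC and length trend, no filter, a minimum of 5 CPM, and folds of 1.3 and 2.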

Additional observations from a re-analysis of the deposited data

How the results depend on the processing

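Each treatment was 1 library, so the spread between cultures is unknown and the intervals hold counting error alone. No paired analysis was possible because each group has 1 library. Of 207 member ratios under the alternatives, 196 stayed on the same side of 1, 180 stayed within the interval and 7 changed their call. Calls with FPKM, for members and for all genes, rested on the fold alone, since FPKM had no interval. None of the called values changed direction. For values that moved, the cause was not tested. Depth limits AKR7A3, with 3 to 6 counts, and AKR1C4, with 68 to 111. The GC and length trend was not fitted for the AKR1C sum, and filters and folds do not apply to it.

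The AKR1C sum for A740003 over PBS was 0.697 with upper quartile scaling. For A438079 over PBS it was 0.764 with total counts, 0.801 with upper quartile scaling, and 0.765 with FPKM at either pseudocount. For A740003 over A438079 it was 0.883 with total counts and 0.883 with FPKM at either pseudocount. Members lower with A740003 numbered 1 of 9 with FPKM and a pseudocount of 1, 1 of 8 at a minimum of 5 CPM and 0 of 9 at a fold of 2. Over all genes, 939 of 12270, 666 of 9589 and 670 of 12270 were lower under these settings. Members lower with A438079 numbered 0 of 9 with DESeq2 size factors, upper quartile scaling, FPKM at either pseudocount and a fold of 2. Over all 12270 genes, 1135, 1011, 1423 (pseudocount 0.1), 824 (pseudocount 1) and 459 were lower under these settings. For A740003 over A438079, 1 of 9 members, AKR1C4, was lower at a fold of 1.3, against 600 of 12270 genes.

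Counts over all genes moved by more than 1.5 times under some settings. For A740003 over PBS (1313 lower, 385 higher), there were 633 higher with FPKM and a pseudocount of 0.1, 799 lower with the trend removed, 760 higher with no filter, 666 lower and 143 higher at 5 CPM, 1021 higher at a fold of 1.3, and 670 lower and 141 higher at a fold of 2. For A438079 over PBS (1158 lower, 200 higher), in the same order of settings, there were 390 higher, 582 lower, 512 higher, 525 lower and 57 higher, 497 higher, and 459 lower and 104 higher. For A740003 over A438079 (345 lower, 300 higher), there were 542 lower and 659 higher with FPKM and a pseudocount of 0.1, 221 lower with a pseudocount of 1, 631 lower and 678 higher with no filter, 109 lower and 65 higher at 5 CPM, 600 lower and 564 higher at a fold of 1.3, and 142 lower and 120 higher at a fold of 2.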
